A study of Bos grunniens with 18 samples.

Results

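The results below describe the lysosome genes of the yak epididymis as they were carried by a map of N6-methyladenosine (m6A), a methyl group carried by some adenosines in mRNA. Members were the genes that the authors' gene annotation assigns to the Lysosome pathway, leaving out those with symbols starting with ATP6V (subunits of the proton pump) or SLC (solute carriers). This gave 115 of 18467 gene identifiers, under 103 symbols. Healthy adult male yaks (Bos grunniens), 4 years old and 6 in number, gave epididymides from which the head, body and tail were taken, named caput, corpus and cauda. RNA fragments pulled down by an m6A antibody (RIP) were sequenced beside fragments that were not (input). Each of the 3 regions had 3 RIP libraries and 3 input libraries, 18 in all. No group was treated, and the labels do not tie libraries to animals, so the libraries of a region may not stand for separate animals.

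The lysosome is the acidic compartment in which cells break down proteins, glycans, lipids and nucleic acids. Its soluble hydrolases receive a mannose-6-phosphate tag in the Golgi, are bound by mannose-6-phosphate receptors and leave in vesicles coated with adaptors and clathrin. The epididymal epithelium takes up material from the duct lumen and also secretes lysosomal glycosidases into the fluid that bathes the sperm. The members were therefore ordered by role into proteases (15 identifiers), glycosidases (21), sulfatases with their activator (8), lipid hydrolases with sphingolipid activators (10), nucleases and phosphatases (4), membrane proteins (22), mannose-6-phosphate tagging enzymes with sorting receptors (7), and adaptors with the clathrin coat (27). The glycosidase list includes AGA, which is an amidase. LITAFD was in none of these lists.

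The deposited files hold 1 list of candidate adenosines per region and 1 table for each of the 3 pairs of regions, in which a site is a whole peak. Values of single libraries are not among them. Error between replicates therefore cannot be stated, and the depth behind a site is unknown. Coordinates are those of the authors' files, counted from 1. The genome build was not given in the sources used here. Exon, intron and UTR classes and sequence were not analysed here.

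Of the 115 members, 62 (53.9%) had a site in at least 1 comparison table, beside 51.1% of all annotated genes, and 53 had none. All 7 tagging and receptor identifiers had a site, as did 17 of 27 adaptor and clathrin identifiers. The shares were smaller among proteases (8 of 15), glycosidases (11 of 21), lipid hydrolases and activators (5 of 10), sulfatases (4 of 8) and membrane proteins (10 of 22). None of the 4 nucleases and phosphatases (DNASE2, DNASE2B, ACP2 and ACP5) had one. Several well-known lysosomal genes were also without a site, among them CD63 (a tetraspanin of late endosomes), LIPA (acid lipase), HEXA (a beta-hexosaminidase subunit), NPC2 (the cholesterol carrier) and CTSZ (a cathepsin). A member without a site says only that the tables list none for it.

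Candidate adenosines were assigned to a gene where they lay in site spans of that gene alone. In this way 52 members held 450 positions, with a median of 7 per gene. GNPTAB, which encodes the catalytic part of the enzyme that begins the mannose-6-phosphate tag, held 43 of them (9.56%). The authors' prediction classed 82 of the 450 as m6A sites, in 33 genes. The remaining 19 genes had candidates but no classed adenosine, among them AP3M2 (20 candidates), CTNS (11), GM2A (8) and FUCA2 (7). A further 10 members had a site but no candidate assigned to them alone, namely PSAP, SORT1, LAMP1, CTSB, CTSH, ARSB, MAN2B1, Mcoln1 and 1 identifier each of HYAL1 and GNPTG.

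**Figure D1:**
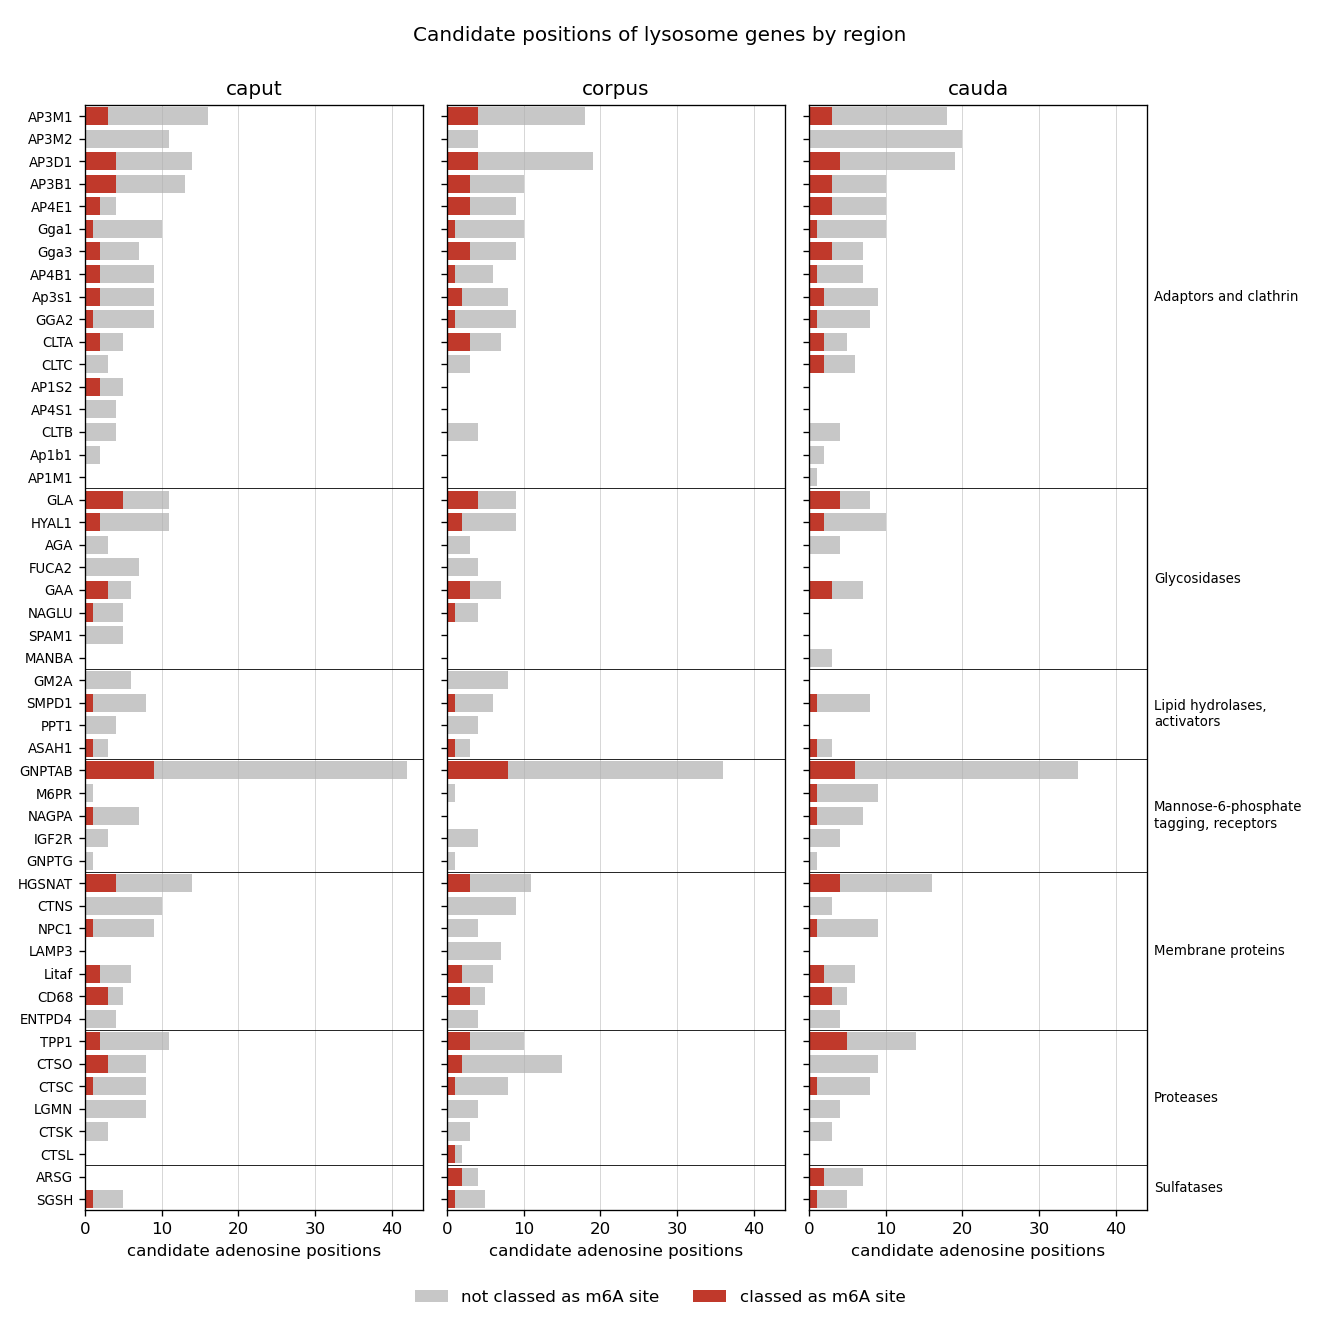
Bars give the number of candidate adenosine positions (horizontal axis) of 49 lysosome genes in the caput, corpus and cauda lists, grouped by role; the red part was classed as m6A sites. GNPTAB is the longest bar in each region, with 42, 36 and 35 positions.

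By region, 46 members held 353 positions in the caput, 45 held 334 in the corpus and 41 held 337 in the cauda. Candidates were listed in all 3 regions for 36 genes. Of these, AGA and CTSO had no single position that was listed in all 3. Listing by gene was not counted over all genes, so these gene counts are description only. In the caput list alone stood AP1S2, AP4S1 and SPAM1, in the corpus list alone LAMP3 and CTSL among 3 genes, and in the cauda list alone AP1M1 and MANBA. FUCA2, NAGLU, GM2A and PPT1 were among 5 genes listed in caput and corpus, Ap1b1 and NAGPA in caput and cauda, and ARSG in corpus and cauda. Of the 450 positions, 227 (50.4%, 95% Wilson interval 45.8 to 55.0) were listed in all 3 regions and 103 (22.9%, 19.2 to 27.0) in 1 region. Over all genes these shares were 52.7% and 23.1%, so the lysosome genes shared positions between regions to about the same degree as other genes.

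The share of members' positions classed as m6A sites was 18.7% in the caput (66 of 353, 95% Wilson interval 15.0 to 23.1), 20.1% in the corpus (67 of 334, 16.1 to 24.7) and 18.7% in the cauda (63 of 337, 14.9 to 23.2). Over all genes it was 19.2%, 19.4% and 19.3%, inside those intervals. At high confidence or above the members had smaller shares, with 4.25% in the caput (15 positions, 2.59 to 6.89), 5.09% in the corpus (17 positions, 3.20 to 7.999) and 4.45% in the cauda (15 positions, 2.72 to 7.21). The corresponding shares over all genes were 7.63%, 7.70% and 7.67%. The all-gene share lay above the interval in caput and cauda and inside it in the corpus. The intervals cover counting error only, positions of 1 peak are not independent, and most positions recur in the 3 lists with the same score, so the regions do not repeat one another as replicates.

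**Figure D2:**
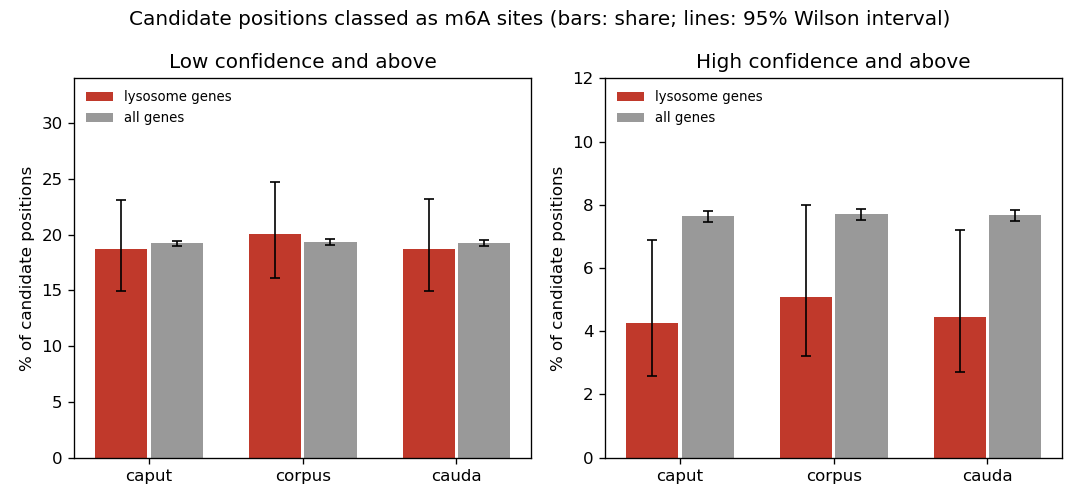
Bars give the percentage of candidate positions classed as m6A sites at low confidence or above (left) and high confidence or above (right) for lysosome genes and all genes by region; lines are 95% Wilson intervals. Lysosome genes lie near 19% on the left as all genes do, and between 4.25% and 5.09% on the right, where all genes lie between 7.63% and 7.70%.

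The predicted adenosines with the highest scores were those of GLA, HGSNAT, CLTA and ARSG. The score is the authors' combined prediction score, for which a value of 0.557 or more was classed as an m6A site and 0.676 or more as very high confidence, and each member position had 1 score in whichever lists held it. Of the 450 positions, 5 (1.11%) reached very high confidence. By region these were 3 of 353 positions in the caput, 5 of 334 in the corpus and 5 of 337 in the cauda. Over all genes the counts were 1997 of 92959, 1988 of 90936 and 1981 of 93216 in that order. GLA, alpha-galactosidase A, held the highest, 0.731 at position 54836003 of chromosome X, in all 3 regions. HGSNAT, the membrane enzyme that acetylates heparan sulfate ends, followed with 0.711 at 15870879 of chromosome 28. CLTA, a clathrin light chain, had 0.705 at 57996572 of chromosome 7. ARSG, a sulfatase, had a pair of neighbouring adenosines at 1920438 and 1920452 of chromosome 19, both with 0.691, listed in corpus and cauda.

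The next scores were in Gga3 (0.673), a trans-Golgi adaptor, and GNPTAB (0.66). Among the glycosidases GAA, acid alpha-glucosidase, reached 0.645. The lipid hydrolases were led by SMPD1, acid sphingomyelinase, at 0.642 and ASAH1, acid ceramidase, at 0.603. Among the proteases TPP1, tripeptidyl peptidase, had 0.623 and CTSO, a cathepsin, 0.613. In CD68, a lysosomal membrane glycoprotein abundant in macrophages, 3 of 5 candidates were classed in each region, the highest at 0.60. GLA had 5 of 11 classed over the regions, AP3D1 and AP3M1, subunits of the AP-3 adaptor, 4 of 19 and 4 of 20, and AP3B1, its beta subunit, 4 of 13, all over the 3 regions.

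The comparisons of regions asked whether any lysosome gene site differed along the duct. None was called. At an adjusted p under 0.05, 0 of 71 lysosome sites passed in corpus over caput, 0 of 66 in cauda over caput and 0 of 62 in cauda over corpus in the authors' deposited table of each pair. Over all sites, the share called at that threshold was 2.98% in corpus over caput (1.12% higher and 1.86% lower), 2.27% in cauda over caput (1.41% and 0.861%) and 1.96% in cauda over corpus (1.24% and 0.719%). At an unadjusted (raw) p below 0.05 there were 13 (18.3%), 14 (21.2%) and 11 (17.7%) lysosome sites in the authors' deposited table, against 16.4%, 17.2% and 16.4% of all sites. The latter shares were close to those of all sites. The test behind these p-values was not given in the sources used here. The ratios may include differences in transcript abundance, and in whole tissue fewer cells of a type and less RNA per cell cannot be told apart.

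The medians of the lysosome sites lay near those of all sites. Their median log2 fold was -0.022, 0.038 and 0.077 in corpus over caput, then cauda over caput, then cauda over corpus, beside -0.02, 0.043 and 0.046 for all sites in the authors' deposited table. Positive folds were carried by 46.5%, 53.0% and 66.1% of lysosome sites in that order, beside 47.5%, 54.9% and 55.9% of all sites, as listed in the authors' deposited table. At a raw p below 0.05, 7 were positive and 6 negative in corpus over caput (9.86% and 8.45% of sites, against 7.21% and 9.24% overall) in the authors' deposited table. The counts were 9 and 5 in cauda over caput (13.6% and 7.58%, against 10.5% and 6.68%) and 9 and 2 in cauda over corpus (14.5% and 3.23%, against 9.71% and 6.68%) in the authors' deposited table. The median absolute log2 fold of lysosome sites was 0.154, 0.192 and 0.147, beside 0.197, 0.213 and 0.20 for all sites in the authors' deposited table. A log2 fold beyond 1 in either direction was carried by 1, 0 and 1 lysosome sites, against 2.64%, 2.42% and 2.32% of sites of any gene in the authors' deposited table, and both were the same AP1S2 site. Without AP1S2 the log2 folds of the members ran from -0.82 to 0.64, from -0.71 to 0.61 and from -0.53 to 0.61 in the authors' deposited table.

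**Figure D3:**
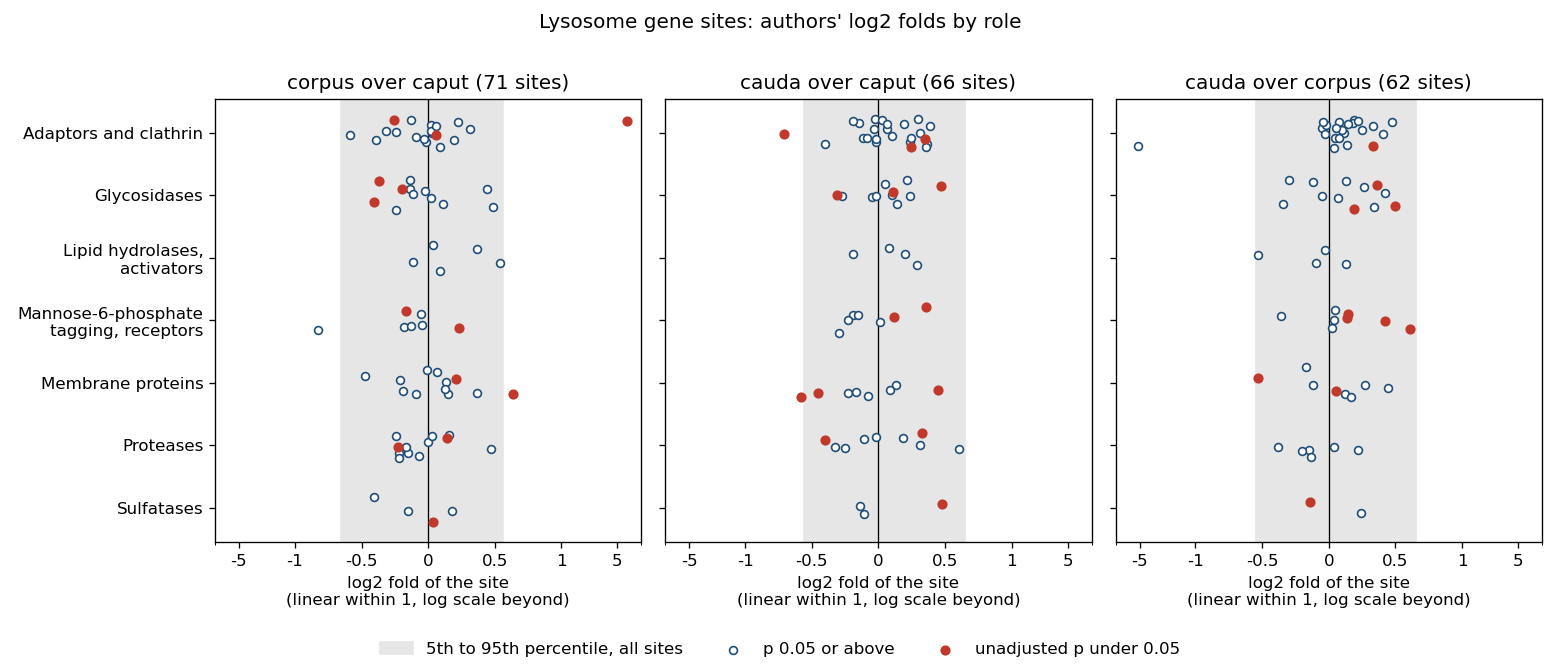
Each point is a lysosome gene site at its log2 fold (horizontal axis, linear within 1 and log beyond) by role, one panel per pair of regions; red points have a raw p below 0.05, and the grey band spans the 5th to 95th percentile of all sites. Most points lie inside the band, and AP1S2 stands apart at 6.54 and -5.20.

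Among the proteases, TPP1 had a site on chromosome 13 from 39100300 to 39100695 with a log2 fold of -0.40 in cauda over caput (p = 0.0038, adjusted p = 0.10) and -0.145 in cauda over corpus (p = 0.10) in the authors' deposited table. CTSC, the dipeptidyl peptidase that activates granule proteases, had -0.065 in corpus over caput (p = 0.70), 0.325 in cauda over caput (p = 0.011, adjusted p = 0.18) and 0.22 in cauda over corpus (p = 0.27) in the authors' deposited table. CTSK, a collagen-degrading cathepsin, had sites only in corpus over caput, at 0.143 (p = 0.016) and -0.225 (p = 0.022) in the authors' deposited table. These were opposite in sign within 1 gene. For the proteases as a group, 1 positive and 1 negative site of 12 in corpus over caput and 1 and 1 of 9 in cauda over caput had a raw p below 0.05, and none of 6 in cauda over corpus, in the authors' deposited table. This and the other counts by role rest on few sites and are to be read against the all-site shares given above. The CTSH site had -0.165 (p = 0.089) in corpus over caput in the authors' deposited table.

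CTSO and TPP1 each carried neighbouring peaks whose candidates were listed in different regions. In CTSO, on chromosome 16, the locus from 47612326 to 47612574 over the tables held 0 candidates in the caput and 9 each in corpus and cauda. The locus just downstream, from 47612722 to 47612920 over the tables, held 8 in the caput, 6 in the corpus and 0 in the cauda. Folds of the first locus over the caput came from a shorter site, 47612376 to 47612524, with 7 candidates each in corpus and cauda. In cauda over corpus the downstream site began at 47612771. The log2 folds of cauda over caput were 0.184 (p = 0.27) for the first and -0.327 (p = 0.34) for the other in the authors' deposited table, and neither was called. In corpus over caput they were 0.154 (p = 0.28) and -0.218 (p = 0.47), and in cauda over corpus -0.13 (p = 0.74) and -0.199 (p = 0.60), in the authors' deposited table. In TPP1, on chromosome 13, the locus from 39090834 to 39091032 over the tables held 0, 5 and 5 candidates in caput, corpus and cauda. The peak from 39092420 to 39092618 held 4, 0 and 0. Their log2 folds in corpus over caput were 0.47 (p = 0.20) and -0.24 (p = 0.16) in the authors' deposited table. In cauda over caput the former was a shorter site, from 39090884, with 3 candidates in the cauda. It had 0.308 (p = 0.22), and a further TPP1 peak, from 39090487 to 39090735, -0.018 (p = 0.77), in the authors' deposited table.

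Glycosidases had a pair of overlapping sites under the symbol HYAL1. The identifiers ENSBGRG00000024152 (described as hyaluronidase 1) and ENSBGRG00000024189 (described as hyaluronidase 2) share a stretch of chromosome 22, on the minus strand, from 12314144 to 12314690, so the same reads may stand behind both. In corpus over caput their log2 folds were -0.367 (p = 0.011, adjusted p = 0.17) and -0.408 (p = 0.012, adjusted p = 0.19) in the authors' deposited table. In cauda over corpus they were 0.42 (p = 0.098) and 0.50 (p = 0.046) in the authors' deposited table. In cauda over caput they were 0.136 (p = 0.056) and 0.112 (p = 0.046) in the authors' deposited table. The folds thus placed the corpus below the other regions, short of the adjusted threshold. A separate site of ENSBGRG00000024189, from 12321758 to 12323434 over the tables, had -0.022, 0.216 and 0.261 (p between 0.055 and 0.56) in the authors' deposited table.

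AGA, counted with the glycosidases, is an amidase that cleaves the link between glycan and asparagine. Its log2 folds were 0.47 in cauda over caput (p = 0.032) and 0.363 in cauda over corpus (p = 0.014), with -0.138 in corpus over caput (p = 0.30), in the authors' deposited table. MANBA, beta-mannosidase, had -0.193 in corpus over caput (p = 0.0074, adjusted p = 0.15), -0.048 in cauda over caput (p = 0.48) and 0.133 in cauda over corpus (p = 0.050) at one site in the authors' deposited table. A second MANBA site had 0.235 (p = 0.41) and 0.339 (p = 0.30) in the latter comparisons in the authors' deposited table. GAA had -0.309 in cauda over caput (p = 0.014, adjusted p = 0.20), -0.115 in corpus over caput (p = 0.34) and -0.299 in cauda over corpus (p = 0.30) in the authors' deposited table. These enzymes thus differed in the sign of their folds. GLA, which held the best scored adenosine, had 0.018, 0.052 and -0.049 (p between 0.20 and 0.31) in the authors' deposited table. Over the glycosidases, 0 positive and 3 negative sites of 12 in corpus over caput, 2 and 1 of 11 in cauda over caput and 3 and 0 of 12 in cauda over corpus had a raw p below 0.05 in the authors' deposited table. In corpus over caput, 2 of the 3 negative ones are the overlapping HYAL1 sites. AGA supplied 1 of the positive sites in cauda over caput and 1 in cauda over corpus.

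Among the sulfatases, ARSG had log2 folds of 0.48 in cauda over caput (p = 0.028), 0.177 in corpus over caput (p = 0.24) and 0.242 in cauda over corpus (p = 0.25) in the authors' deposited table, with 0, 4 and 7 candidates in caput, corpus and cauda. ARSB, which acts on dermatan sulfate, had -0.41 in corpus over caput (p = 0.18) in the authors' deposited table.

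Lipid hydrolases and activators had no site at a raw p below 0.05 among 5, 4 and 4 in the authors' deposited table. GM2A, the activator needed to degrade GM2 ganglioside, had the widest log2 folds of this role, 0.54 in corpus over caput (p = 0.095) and -0.53 in cauda over corpus (p = 0.081), with 0.077 in cauda over caput (p = 0.77), in the authors' deposited table. Its candidates numbered 6 in the caput, 8 in the corpus and 0 in the cauda. SMPD1 had 0.365 in corpus over caput (p = 0.10) and 0.291 in cauda over caput (p = 0.16), with -0.03 in cauda over corpus (p = 0.81), at the locus from 38859081 to 38859478 of chromosome 13 in the authors' deposited table. A second SMPD1 site had 0.196 (p = 0.18) and 0.128 (p = 0.41) in cauda over caput and cauda over corpus in the authors' deposited table. Both SMPD1 loci had positive folds in cauda over caput. PPT1, a palmitoyl-protein thioesterase, had 0.033 (p = 0.59) and PSAP, the precursor of the saposins, -0.115 (p = 0.59) in corpus over caput in the authors' deposited table. ASAH1 had 0.089 (p = 0.30) in the same comparison in the authors' deposited table. PSAP also had -0.189 in cauda over caput (p = 0.28) and PPT1 -0.099 in cauda over corpus (p = 0.41) in the authors' deposited table.

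Among the membrane proteins, CD68 had log2 folds of 0.64 in corpus over caput (p = 0.014, adjusted p = 0.20) and 0.44 in cauda over caput (p = 0.0025, adjusted p = 0.083), and -0.173 in cauda over corpus (p = 0.35), in the authors' deposited table. Its site, on chromosome 19 from 40777208 to 40777496, minus strand, had the same span in each table. CD68 is also a marker of macrophages, so other macrophage markers are given here. Of the 14 such genes searched, 10 had 21 sites in corpus over caput, of which 1 site of PTPRC was called higher (0.93, adjusted p = 0.0055), with a median log2 fold of 0.013, as given in the authors' deposited table. The share of all sites called higher in corpus over caput was 1.12%. In cauda over caput 8 of the macrophage genes had 18 sites, 0 called and a median of -0.136 in the authors' deposited table. In cauda over corpus 8 had 17 sites, 0 called and a median of -0.131 in the authors' deposited table. The 3 other PTPRC sites in corpus over caput had -0.751, 0.141 and 0.211 (p between 0.35 and 0.45) in the authors' deposited table. Candidates were listed for 8, 7 and 6 of the 14 genes in caput, corpus and cauda. The part of macrophages in the CD68 values was not tested.

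CTNS, the cystine exporter, had log2 folds of -0.456 in cauda over caput (p = 0.0044, adjusted p = 0.11) and -0.53 in cauda over corpus (p = 0.019, adjusted p = 0.24), against 0.067 in corpus over caput (p = 0.52), in the authors' deposited table. Its candidates numbered 10, 9 and 3 in caput, corpus and cauda, with no classed adenosine. Mcoln1, the lysosomal calcium channel, had the lowest p of the members in corpus over caput, at a log2 fold of 0.21 (p = 0.0022, adjusted p = 0.074), and -0.578 in cauda over caput (p = 0.0032, adjusted p = 0.095), in the authors' deposited table. Its site of 150 bases overlaps a site of PNPLA6, a phospholipase, so its candidates were assigned to neither gene alone. The 4 candidates in that span were listed in caput and cauda, not in the corpus. NPC1, the cholesterol exporter, had -0.477 in corpus over caput (p = 0.069), -0.166 in cauda over caput (p = 0.76) and 0.275 in cauda over corpus (p = 0.25) at one site in the authors' deposited table. A second NPC1 site, present in cauda over corpus alone, had 0.448 (p = 0.083) in the authors' deposited table. HGSNAT held 14, 11 and 16 candidates, and its sites had p of 0.34 or more in each authors' deposited table.

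The genes of mannose-6-phosphate sorting held the member closest to the threshold. IGF2R, the large mannose-6-phosphate receptor, had a site of 649 bases on chromosome 10 from 104259634 to 104262307, minus strand. Its log2 fold was 0.419 in cauda over corpus (p = 0.00083, adjusted p = 0.0501) and 0.356 in cauda over caput (p = 0.0014, adjusted p = 0.065) in the authors' deposited table. These were the lowest adjusted p-values of any lysosome site in those comparisons, and they lay just outside the threshold of 0.05. No IGF2R site was in the table of corpus over caput. Candidates in its span numbered 3, 4 and 4 in caput, corpus and cauda, of which 0 were classed.

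GNPTAB had 3 peak loci whose folds differed in sign. Its main peak, on chromosome 5 from 39710194 to 39714854 over the tables, had log2 folds of -0.056 (p = 0.29), 0.118 (p = 0.0040, adjusted p = 0.11) and 0.148 (p = 0.019, adjusted p = 0.24) in corpus over caput, then cauda over caput, then cauda over corpus in the authors' deposited table. That peak held 33, 26 and 29 candidates in caput, corpus and cauda, with 6, 5 and 5 classed. The locus before it, from 39705395 to 39706186, had -0.299 in cauda over caput (p = 0.76) in the authors' deposited table. The locus after it, from 39715766 to 39719342 over the tables, had -0.194 in cauda over caput (p = 0.80) and -0.355 in cauda over corpus (p = 0.57) in the authors' deposited table. NAGPA, which uncovers the mannose-6-phosphate tag, had the widest folds of the role, -0.82 in corpus over caput (p = 0.056) and 0.61 in cauda over corpus (p = 0.045), with -0.231 in cauda over caput (p = 0.43), in the authors' deposited table. Its 7 candidates each in caput and cauda, and 0 in the corpus, followed the same order. GNPTG, the gamma subunit of the tagging enzyme, had 0.138 in cauda over corpus (p = 0.013, adjusted p = 0.20) with -0.128 (p = 0.13) in corpus over caput and 0.012 (p = 0.40) in cauda over caput, at the minus-strand identifier in the authors' deposited table. A plus-strand identifier of that symbol overlaps it on chromosome 26, with -0.047 (p = 0.43) in corpus over caput and 0.049 (p = 0.51) in cauda over corpus in the authors' deposited table. M6PR, the small receptor, had -0.165 (p = 0.047) and SORT1, the sorting receptor sortilin, 0.231 (p = 0.044) in corpus over caput in the authors' deposited table. At the same loci M6PR had -0.15 (p = 0.24) in cauda over caput and 0.037 (p = 0.54) in cauda over corpus, and SORT1 0.021 (p = 0.82) in cauda over corpus, in the authors' deposited table. Another M6PR site, in corpus over caput alone, had -0.182 (p = 0.36) in the authors' deposited table. Its 8 candidates were listed in the cauda only. In this role 4 positive and 0 negative sites of 8 had a raw p below 0.05 in cauda over corpus, 2 and 0 of 7 in cauda over caput and 1 and 1 of 7 in corpus over caput in the authors' deposited table. The all-site shares beside these are 9.71% positive and 6.68% negative in cauda over corpus, 10.5% and 6.68% in cauda over caput and 7.21% and 9.24% in corpus over caput. With 8 sites or fewer and no test of the role, these counts describe the named genes and set the role apart from no other.

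The adaptors and clathrin held the AP1S2 site. AP1S2, the small sigma subunit of AP-1, lay on chromosome Y in the files. Its site from 12569864 to 12572043 had a ratio of 93.1 in corpus over caput (log2 fold 6.54, p = 0.015, adjusted p = 0.21) in the authors' deposited table. In cauda over corpus its log2 fold was -5.20, an inverse ratio of 36.8 (p = 0.066, adjusted p = 0.41), in the authors' deposited table. This was the lowest log2 fold of all 13917 sites of that table, while 2 of 14061 sites reached 6.54 or more in corpus over caput in the authors' deposited table. Neither comparison called it, and 0 candidate adenosines were listed in its span in any region. The site was 148 bases long, and the depth behind its ratios is unknown. No AP1S2 site was in the table of cauda over caput. The other AP1S2 site, from 12556424 to 12562079 over the tables, had -0.39 (p = 0.30) in corpus over caput and 0.41 (p = 0.056) in cauda over corpus in the authors' deposited table.

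AP-3, the adaptor that carries membrane proteins to lysosomes and related organelles, was present with several subunits. AP3B1 had -0.257 in corpus over caput (p = 0.0054, adjusted p = 0.12) and 0.334 in cauda over corpus (p = 0.020, adjusted p = 0.25) in the authors' deposited table. With 0.064 in cauda over caput (p = 0.74) in the authors' deposited table, its folds placed the corpus lowest. An upstream AP3B1 site had -0.588 (p = 0.059) in corpus over caput and -0.147 (p = 0.53) in cauda over caput, and another 0.184 (p = 0.69) in cauda over corpus, in the authors' deposited table. AP3M1, the mu subunit, had 0.062 (p = 0.022), 0.347 (p = 0.041) and 0.252 (p = 0.060) in corpus over caput, then cauda over caput, then cauda over corpus in the authors' deposited table. A neighbouring AP3M1 locus had 0.194 (p = 0.24), 0.295 (p = 0.058) and 0.08 (p = 0.42) in that order in the authors' deposited table. All 6 AP3M1 folds were positive. AP3D1, the delta subunit, had p between 0.12 and 0.77 over its sites in the authors' deposited table. Gga3 carried -0.71 in cauda over caput (p = 0.027) at the site from 8230784 to 8232378 of chromosome 19, and 0.189 (p = 0.15) at another, which had 0.025 (p = 0.31) in corpus over caput and 0.221 (p = 0.10) in cauda over corpus, in the authors' deposited table. CLTA had the same span in each table, with 0.018, 0.065 and 0.047 (p between 0.063 and 0.22), in the authors' deposited table. Of the adaptor and clathrin sites, 2 positive and 1 negative of 19 in corpus over caput, 2 and 1 of 24 in cauda over caput and 1 and 0 of 22 in cauda over corpus had a raw p below 0.05 in the authors' deposited table.

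**Figure D4:**
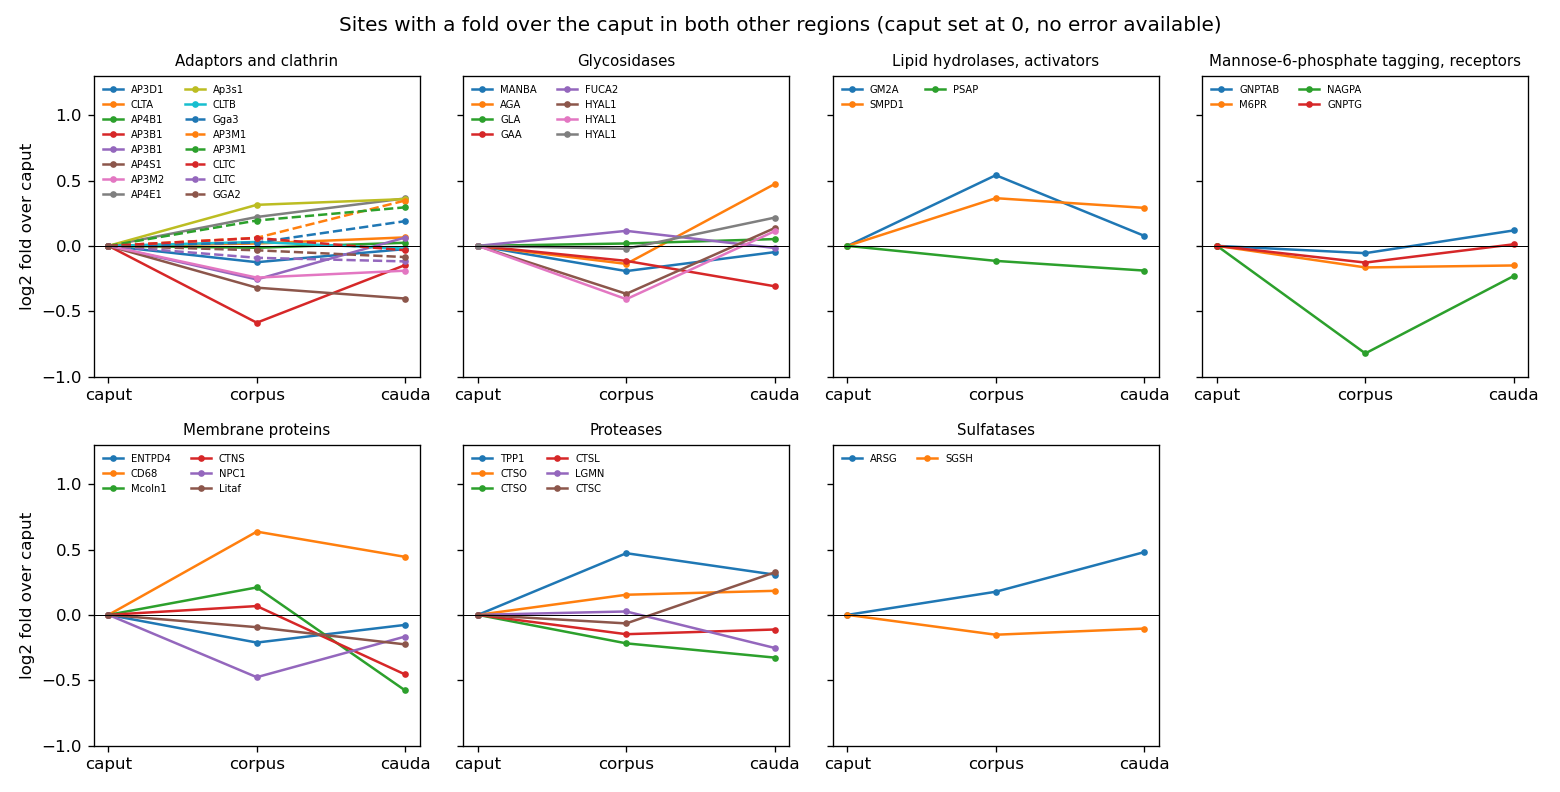
Lines give the log2 fold of a site over the caput (vertical axis, caput set at 0) in corpus and cauda for 45 loci with 1 site in both tables, by role; no error is available, and spans can differ between tables. NAGPA has the lowest value in the corpus, at -0.82, and CD68 the highest, at 0.64.

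Small differences could carry low p-values. Of the 38 lysosome sites with a raw p below 0.05 over the 3 tables, 12 had an absolute log2 fold under 0.2 in the authors' deposited table. Folds of sites with one span in the 3 tables were close to additive. For the 1852 sites of any gene with the same span in the 3 tables, the log2 fold of cauda over caput differed from the sum of the other pair by a median of 0.0086 and at most 0.128 in the authors' deposited table. For the 6 lysosome sites of this kind (CD68, CTSL, CLTA, GNPTG, ENTPD4 and NPC1) the median was 0.0074 and the largest 0.036 in the authors' deposited table. Where spans could differ, over the 37 lysosome loci with 1 site in each table, the median was 0.032 and the largest 0.248, that of AGA, in the authors' deposited table. The AGA folds given above come from sites of 149 bases in corpus over caput, 495 in cauda over caput and 347 in cauda over corpus, and they do not add up. The 3 tables share libraries, so this is one set of region values seen in 3 ways and not 3 independent results.

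The listing of candidates and the folds come from the same libraries, so one is no independent evidence for the other, and their relation is given as a description that all sites share. In cauda over caput, 42 of 66 lysosome sites had candidates in both lists, 7 in the cauda list alone with a median log2 fold of 0.308, and 9 in the caput list alone with a median of -0.27 in the authors' deposited table. Over all sites those medians were 0.368 and -0.262 in the authors' deposited table. In corpus over caput the lysosome medians were 0.177 (7 sites) and -0.28 (8 sites), and in cauda over corpus 0.239 (8 sites) and -0.143 (7 sites), in the authors' deposited table. The all-site medians there were 0.30 and -0.341, and 0.352 and -0.287, in the authors' deposited table, so the lysosome medians lay nearer to 0. Folds of the opposite sign were held by CTSL (an identifier described as cathepsin V), listed in the corpus alone, with -0.148 in corpus over caput (p = 0.093) and 0.039 in cauda over corpus (p = 0.42) in the authors' deposited table. In corpus over caput AGA, listed at that site in the corpus and not the caput, had -0.138, and Mcoln1, listed in the caput and not the corpus, 0.21, in the authors' deposited table. GM2A, listed in the caput and not the cauda, had 0.077 in cauda over caput, and TPP1, listed at its site from 39100300 in the cauda and not the corpus, -0.145 in cauda over corpus, in the authors' deposited table. No list held a candidate in the span of 13 of 71, 7 of 66 and 10 of 62 lysosome sites (18.3%, 10.6% and 16.1%, beside 11.5%, 11.6% and 11.98% of all sites).

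Genes around the lysosome were taken from lists of known function. The proton pump, with symbols starting with ATP6V, had 2 of 16 sites called, both lower in the corpus than in the caput, in ATP6V1B1 (-1.35, adjusted p = 0.014) and ATP6V1G3 (-0.99, adjusted p = 0.036) in the authors' deposited table. Another ATP6V1B1 site had 1.88 (p = 0.48) there in the authors' deposited table. In cauda over caput and cauda over corpus 0 of 9 and 0 of 11 pump sites were called, with 2 and 4 at a raw p below 0.05, in the authors' deposited table. ATP6V1B1 and ATP6V1G3 mark clear and narrow cells and are themselves in that marker list, so its counts are not separate from those of the pump. Of the 8 sites of the marker list in corpus over caput 4 were called lower, with a median log2 fold of -0.59, as given in the authors' deposited table. The share of all sites called lower there was 1.86%. Other marker lists also held sites called lower in corpus over caput, 3 of 17 for principal cell and secretory genes and 2 of 7 for sperm genes, in the authors' deposited table. Basal cell and smooth muscle genes had 0 of 6 and 0 of 11 called there. In cauda over caput 1 of 5 clear and narrow cell sites was called lower, and in cauda over corpus 0 of 2 were called, in the authors' deposited table. Principal cell and secretory genes had 2 higher and 2 lower of 15 in cauda over caput. The 11 lysosome genes that the ATP6V and SLC symbols left out held 6, 3 and 5 sites and 0 calls in the authors' deposited table. Genes of the TFEB family and of nutrient sensing at the lysosome, such as MTOR and the Rag GTPases, had 0 of 18, 0 of 11 and 0 of 14 sites called, with 4, 2 and 2 at a raw p below 0.05, in the authors' deposited table.

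Autophagy genes had 2 of 30 sites called lower in corpus over caput, those of ATG10 (-1.15, adjusted p = 0.0052), an enzyme of the ATG12 conjugation step, and TAX1BP1 (-0.32, adjusted p = 0.0078), a cargo receptor, in the authors' deposited table. TAX1BP1 also had a different site called higher in cauda over corpus (0.27, adjusted p = 0.039), 1 of 28, and 0 of 30 were called in cauda over caput (6 at a raw p below 0.05), in the authors' deposited table. In the list of fusion with lysosomes, RAB7A, the small GTPase of late endosomes, had 1 site called lower (-0.304, adjusted p = 0.037) and 1 called higher (0.035, adjusted p = 0.042) of 24 in cauda over corpus in the authors' deposited table. The remaining tables called 0 of 29 and 0 of 28 sites of that list, with 5 and 2 at a raw p below 0.05, in the authors' deposited table. In corpus over caput the pump had 1 positive and 3 negative of 16 sites at a raw p below 0.05, and autophagy genes 1 and 7 of 30, in the authors' deposited table. In cauda over corpus autophagy genes had 2 and 3 of 28 and the fusion list 4 and 4 of 24 in the authors' deposited table. The called counts of these 4 lists stand beside the 2.98%, 2.27% and 1.96% of all sites called. Their raw counts stand beside the 16.4%, 17.2% and 16.4% of all sites at a raw p below 0.05.

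As a check of the labelled tissue, candidates were sought in marker lists of its cell types, and each list was met only in part. In at least 1 region they were listed for epithelial genes of the duct (AQP9, CDH1, CFTR, CRISP2 and ADAM28 among them, ADAM28 in the caput alone). They were also listed for sperm genes (AKAP3, Akap4, Odf2 and TNP2), basal cell genes (KRT5, Itga6 and Tp63) and smooth muscle genes (Acta2, CNN1, MYH11 and TAGLN). A listed candidate gives no level of the transcript. Of 24 identifiers of the principal cell and secretory list, 8 held candidates in the caput and 4 each in corpus and cauda. None was listed for LCN5, CRISP1 or GPX5 of that list. In caput, corpus and cauda, candidates were in 4, 1 and 4 of 8 sperm identifiers, with PRM1 and PRM2 in no region. The counts were 2, 3 and 3 of 5 for basal cells and 4, 4 and 3 of 5 for smooth muscle. Candidates of the clear and narrow cell list were in 5 of 8 genes in the caput and in 1 each in corpus and cauda.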

How the data were processed

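The members and gene lists were chosen with earlier results of these data known, so no list is independent evidence. The submitters' processing notes name the tools HISAT2, deepTools and Trimmomatic, with no version. Peak caller, site predictor, differential test and build were not given in the sources used here. Per the file headers, the authors deposited for each pair of regions a ratio (fold), its log2 value, a p-value and an adjusted p-value per site, and for each region a prediction score per adenosine. The depth of the libraries is unknown. The 9 expression columns carry codes that match no label and were not used. The pathway and symbol columns of that table gave the members.

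Candidate positions were counted once with their highest score and assigned by site spans (intervaltree 3.1.0), and the assignment was tested on simulated data. Sites of a gene that shared at least 1 base over the tables form a locus. Shares have 95% Wilson intervals (statsmodels 0.14.6). No test was added to the authors' own: a site is called at an adjusted p under 0.05. Named genes were those with a called site (none), in each role up to 2 by lowest p in each comparison, by highest score and by most classed positions, and the extreme folds at an unadjusted p below 0.05, giving 37 members; others were named after their values were seen. Symbols shared by 24 identifiers (12 symbols) were kept apart by identifier. Alternatives changed the thresholds, site structure, assignment and member rule. Results of some members are not reported here, although counts over all members include them.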

Additional observations from a re-analysis of the deposited data

How the results depend on the processing

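The count of called lysosome sites stayed at 0 in each comparison with an adjusted p under 0.01, with a 2-fold limit, with unspliced sites only and with ATP6V and SLC symbols kept. At an unadjusted p under 0.05 it was 13 in corpus over caput, 14 in cauda over caput and, in cauda over corpus, 11, by construction of the looser threshold. The median log2 fold of corpus over caput turned from -0.022 to 0.018 with 1 value a gene, its site of lowest p; the cause was not tested. The other medians kept their sign within 0.05 under unspliced sites, 1 value a gene, the wider member rule and, chosen after seeing the data, overlapping sites of HYAL1 and GNPTG counted once. The share of classed positions was 4.25%, 5.09% and 4.45% in caput, corpus and cauda at high confidence and above, by construction, and 22 genes in place of 36 had classed positions in all 3 regions. No paired analysis was possible because the files carry no values per library, so leaving out a replicate was not run either. Depth per site is unknown.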
